A study of Mus musculus with 764 samples.

Results

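The genes described here are 9 genes of lymph node homing and of stem-like memory in T cells, namely Ccr7, Lef1, Tcf7, Klf2, S1pr1, Bach2, Satb1, Il6ra and Foxo1. They were chosen by name for these roles, with earlier results of these data known, and all 9 have a row in both count tables, out of 23997 gene rows. Their levels were read in single IL-10-producing CD4+ T cells of mouse spleen and small intestine (SI). They came from reporter mice, 8 to 16 weeks old, in which a green protein (eGFP) reports the Il10 gene and a red protein (mRFP) the Foxp3 gene. All cells came from mice injected with an antibody against CD3, which stimulates T cells and expands those that make IL-10, so both tissues share this treatment and untreated cells were not analysed here. The cells were sorted for the IL-10 reporter and sequenced with SMART-seq2, a full-length protocol without molecular identifiers, and cells with Foxp3 transcripts were present among them. The label names neither the animal nor the number of animals, so each tissue was 1 sample, cells are not replicates of a condition, and no p-value is given.

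T cells that have not met antigen, and central memory cells, circulate through lymphoid organs. CCR7 is the receptor that guides them into lymph nodes and the T cell zones of the spleen, and S1PR1 is the receptor through which they leave into lymph and blood. FOXO1 and KLF2 are transcription factors upstream of this programme, and KLF2 is a direct activator of S1pr1. TCF-1, the product of Tcf7, and LEF-1 are related transcription factors that maintain self-renewing T cells. BACH2 represses effector genes, SATB1 organises chromatin in T cells, and the IL-6 receptor alpha chain, the product of Il6ra, is lost from many effector cells. In the gut wall, T cells that stay are known for low levels of the exit receptor S1PR1 and of KLF2.

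The tables held 764 cells, 190 of them from the SI. After removal of cells with few reads and of cells called S or G2M, 400 spleen cells and 72.1% of the SI cells remained. The plate and well codes in the labels divide the spleen cells into 3 well sets, with 33.25% of the kept spleen cells in well columns 1-12 of plate p1, 36.25% in columns 13-24 of p1 and 30.5% on plate p2. The order p1 columns 1-12, p1 columns 13-24, p2 is used wherever 3 spleen values are given. All SI cells lay on p2, so tissue and position on that plate cannot be told apart there. Kept cells had a median of 315920 to 366140 reads per set and a median of 3105 to 3331 genes with a read. No pair of cells held identical columns. The T cell genes Cd3e, Cd3d, Cd3g and Cd4 each had at least 10 reads in 97.9% or more of the cells of every set. The well sets differed in Foxp3, which had at least 10 reads in 54.1% of the cells in p1 columns 1-12, 13.1% in p1 columns 13-24, 4.1% in p2 spleen and 3.65% in the SI. At least 10 reads of a B cell marker were seen in 2.46% to 3.01% of the cells of the spleen sets and in 8.03% of SI cells, where Cd79b was the only one of the 6 markers at that level. For the CD8 markers Cd8a and Cd8b1 the corresponding shares were 9.84% to 14.3% and 21.9%, and for 5 myeloid markers 12.8% to 19.3% and 32.1%. Cd8b1 made up the spleen share, at 14.3%, 10.3% and 9.84%, while Cd8a had 0.75%, 0% and 0%. SI cells had 19.7% for Cd8a and 5.84% for Cd8b1. Among the myeloid markers, Cd68 alone had 8.27%, 15.2% and 10.7% in the spleen sets and 32.1% in the SI. Each of the others was at or below 3.45% in every set. The part of cells with myeloid markers in the results was not tested.

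Promoter windows from RefSeq (build GRCm38.p6) were examined for 7 of the 9 genes, and those of Ccr7 and S1pr1 were not analysed here. The bases upstream of the first listed start are shown for Klf2, Lef1 and Il6ra, as genes that were low in SI cells, and for Foxo1, as one that was not. All run 5′ to 3′ on the strand of the gene and stop before its first annotated exon. Klf2 lies at chr8:72318812-72319032 on the plus strand, Lef1 at chr3:131110047-131110296 on the plus strand, Il6ra at chr3:89913197-89913446 on the minus strand and Foxo1 at chr3:52268087-52268335 on the plus strand. Capitals mark matches, on either strand and overlapping where they repeat, to a KLF motif (CCNCNCCC) or a MEF2 motif (CTANNNNTAG).
Klf2: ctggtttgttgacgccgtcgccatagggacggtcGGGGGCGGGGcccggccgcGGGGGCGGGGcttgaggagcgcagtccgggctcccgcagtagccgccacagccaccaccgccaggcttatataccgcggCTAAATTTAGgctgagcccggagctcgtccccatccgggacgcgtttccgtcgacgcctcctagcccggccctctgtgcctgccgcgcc
Lef1: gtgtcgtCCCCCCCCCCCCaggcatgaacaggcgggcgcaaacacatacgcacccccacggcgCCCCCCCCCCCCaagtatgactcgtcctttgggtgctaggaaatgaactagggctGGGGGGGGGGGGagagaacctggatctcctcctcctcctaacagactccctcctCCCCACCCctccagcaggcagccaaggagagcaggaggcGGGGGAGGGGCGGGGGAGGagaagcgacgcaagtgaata
Il6ra: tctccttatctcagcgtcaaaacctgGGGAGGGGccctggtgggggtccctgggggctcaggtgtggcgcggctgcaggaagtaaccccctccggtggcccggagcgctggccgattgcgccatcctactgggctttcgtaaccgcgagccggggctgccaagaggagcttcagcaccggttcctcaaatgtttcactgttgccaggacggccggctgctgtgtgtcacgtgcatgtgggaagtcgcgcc
Foxo1: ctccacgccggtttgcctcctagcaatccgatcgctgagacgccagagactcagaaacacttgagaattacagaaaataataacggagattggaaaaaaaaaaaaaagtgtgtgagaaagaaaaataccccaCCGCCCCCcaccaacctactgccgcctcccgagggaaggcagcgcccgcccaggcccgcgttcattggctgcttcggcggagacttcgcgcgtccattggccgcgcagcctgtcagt
Over the 250 bases upstream of the first listed start, the KLF motif was present in 6 of the 7 members and in 45.6% of 27025 promoters. The MEF2 motif was present in 1 of 7, Klf2, and in 3.23% of promoters. The KLF motif consists of C and free letters, and the windows with it were rich in G and C. Their GC share was 76% for Tcf7, 71.2% for Klf2, 66.4% for Lef1, 65.2% for Il6ra, 58% for Satb1 and 56% for Foxo1. Bach2, without the motif, had 50.4%, and the median of all promoters was 52%. The part of base composition in this count was not tested. A forkhead motif (GTAAACA) and a TCF/LEF motif (CTTTGNT) were present in 0 of 7, against 3.09% and 16.1% of promoters. These counts describe letters in a window and were not tested.

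Expression was measured in CPM, the reads of a gene scaled to a total of 1000000 reads in every cell, and a gene was called detected in a cell with at least 10 reads. Intervals of shares are 95% exact binomial intervals and cover counting error only. The tissue comparison asked which members are kept by IL-10-producing cells of the SI. Of the 9 members, 7 were at least 4-fold lower in the SI (log2 ratio of mean CPM + 1 of -2 or less), against 4.51% of the 8384 genes with a mean of at least 10 CPM. The median log2 ratio was -4.25 over the members and -0.23 over all genes tested. Satb1 and Foxo1 were the members that were not lower.

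**Figure D1:**
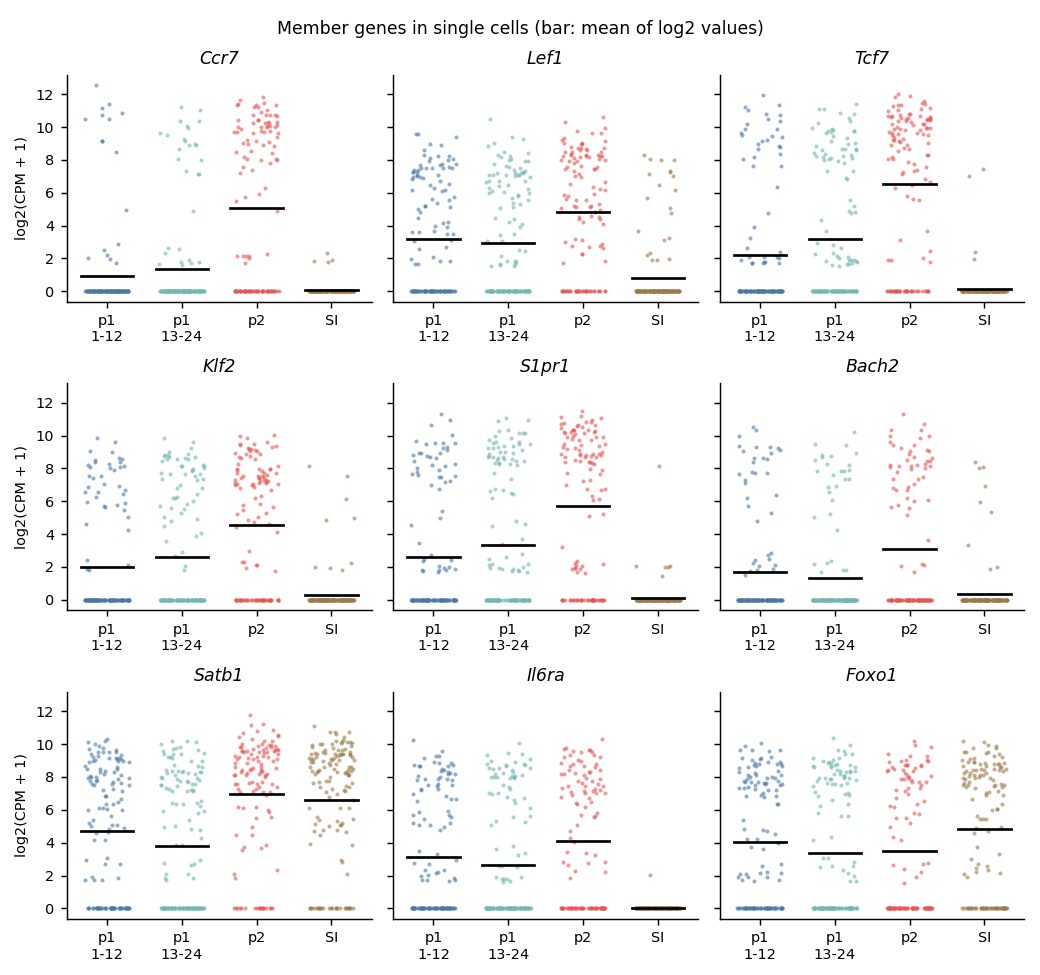
Expression of the 9 genes in each kept cell, as log2(CPM + 1) on the vertical axis, for p1 columns 1-12, p1 columns 13-24, p2 spleen and small intestine (SI). Points are cells and black bars the mean of the log2 values. For 7 genes nearly all SI points lie at 0, while Satb1 and Foxo1 keep a cloud of positive SI cells.

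Of the migration genes, Ccr7 was detected in 8.27% (interval 4.2% to 14.3%) of the cells in p1 columns 1-12, 13.1% (8.08% to 19.7%) in p1 columns 13-24 and 51.6% (42.4% to 60.8%) in p2 spleen. Its CPM in these sets had a lowest value of 0 and a median of 0, 0 and 56.03, with highest values of 6080, 2365 and 3704. In p1 columns 1-12, 1 cell held 40.3% of the Ccr7 reads. In the SI, 0 cells reached 10 reads (interval 0% to 2.66%), and a floor of 3 cells for a count of 0 would be 2.19%. The SI cells held 4 Ccr7 reads in all. From summed reads over summed depth, the spleen level was 2752-fold above the SI (interval of 1075 to 10099). This interval covers the counting error of the 4 SI reads only, with the spleen level taken as fixed. The mean was 259.1 CPM in spleen and 0.0863 CPM in the SI, a log2 ratio of -7.90. Each set held cells without a Ccr7 read, and the highest value in the SI was 4.03 CPM.

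S1pr1, the exit receptor, was detected in 27.8%, 33.8% and 60.7% of the cells of the 3 spleen sets and in 1 SI cell (0.73%, interval 0.0185% to 4.0%). Its median was 0, 0 and 221.97 CPM in the spleen sets with highest values of 2495, 2185 and 2920 CPM, and the SI median was 0 with a highest value of 281.9 CPM. That 1 SI cell held 95.97% of the S1pr1 reads of the tissue. The log2 ratio of SI to spleen was -6.46. Klf2, the activator of S1pr1, was detected in 25.6%, 31.7% and 54.1% of spleen cells and in 4 SI cells (2.92%, interval 0.801% to 7.31%). Its mean was 102.3 CPM in spleen and 4.42 CPM in the SI, a log2 ratio of -4.25. So each of the homing and exit genes was close to absent in the SI and present in a minority of p1 and a majority of p2 spleen cells.

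Tcf7 was detected in 20.3%, 33.1% and 67.2% of the cells of the spleen sets and in 2 SI cells (1.46%, interval 0.177% to 5.17%). Its median CPM was 0, 0 and 415.4 in the spleen sets and 0 in the SI, with highest values of 3928, 2734, 4161 and 176.2 CPM. The log2 ratio of the tissues was -6.86. Its relative Lef1 had a log2 ratio of -2.79. Lef1 was detected in 38.3%, 35.9% and 53.3% of spleen cells and in 12 SI cells (8.76%, interval 4.61% to 14.8%), at a median of 145.9 CPM in those 12 cells and 175.6 CPM in the spleen cells with Lef1. The SI cells with Lef1 thus lay within the range of the spleen cells with Lef1, and fewer cells had it. Bach2 was detected in 18.8%, 15.2% and 35.2% of spleen cells and in 6 SI cells (4.38%, interval 1.62% to 9.29%), with a log2 ratio of -3.43.

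Il6ra, which encodes the IL-6 binding chain of the receptor, was detected in 37.6%, 31.03% and 46.7% of the spleen cells and in 0 SI cells (interval 0% to 2.66%). The SI cells held 1 Il6ra read in all against 15257 reads in the spleen, a ratio, over summed depth, of 4847 (interval 870 to 191441). Here too the interval covers the counting error of the SI read only. The log2 ratio of the means was -6.83. Of 7 other genes of the IL-6 pathway, 1 was at least 4-fold lower in the SI, namely Il6st, the shared signalling chain gp130, with a log2 ratio of -2.49. The kinase genes Jak1 and Jak2 had log2 ratios of -0.16 and 0.05, and Stat3, the main transcription factor of the pathway, had 0.87. Within p2, Il6st had a ratio of -1.78 and was not called.

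Satb1 was detected in 55.6% (46.8% to 64.2%), 44.1% (35.9% to 52.6%) and 77.05% (68.6% to 84.2%) of the cells of the spleen sets and in 73.7% (65.5% to 80.9%) of SI cells. Its median was 48.2, 5.19, 315.3 and 300.6 CPM in these 4 sets, with a lowest value of 0 and highest values of 1271, 1161, 3466 and 2247 CPM. The log2 ratio of SI to spleen was 0.56 and depended on the spleen set, with 0.96 against p1 columns 1-12, 1.33 against p1 columns 13-24 and -0.25 against p2, a value that was 0.0055 with DESeq2's scaling. Foxo1 was detected in 44.4%, 38.6% and 40.98% of spleen cells and in 56.2% (47.5% to 64.7%) of SI cells. Its log2 ratio of SI to spleen was 0.56 and lay between 0.45 and 0.62 against the 3 well sets. Foxo1 transcripts were thus present in a tissue sample in which those of Klf2, S1pr1, Ccr7 and Il6ra were nearly absent.

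**Figure D2:**
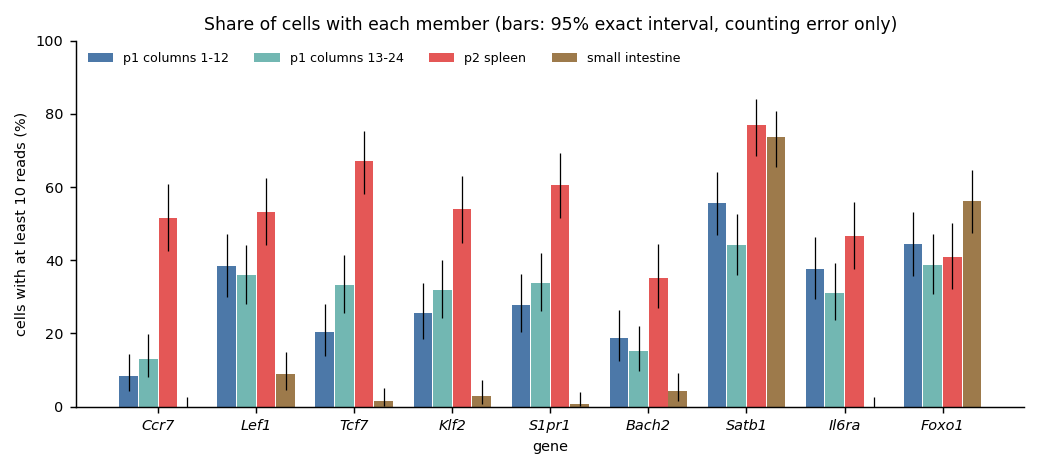
Share of cells with at least 10 reads (vertical axis, %) for each gene in the 3 spleen well sets and the small intestine, with 95% exact binomial intervals that cover counting error only. Ccr7, Tcf7, Klf2 and S1pr1 are more frequent in p2 than in p1 spleen and are below 3% in the small intestine, while Satb1 reaches 73.7% there and Foxo1 56.2%.

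The comparison was repeated within plate p2, where both tissues were present. Again 7 of 9 members were at least 4-fold lower in the SI, against 4.28% of 8342 genes, with log2 ratios from -9.05 for Ccr7 to -3.53 for Lef1 among the 7. Against p1 columns 1-12 and p1 columns 13-24 alone the count was 7 as well, with ratios from -7.04 to -2.33 and from -6.57 to -2.25. Limiting the spleen to cells with at least 10 Il10 reads left 7 of 9, beside 4.15% of all genes. Leaving out each cell with at least 10 reads of a B cell or CD8 marker also left 7 of 9, beside 4.93% of all genes.

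Other genes of circulating and of tissue T cells were read from fixed lists. Of 15 naive and central memory genes, 10 were at least 4-fold lower in the SI and 0 higher, with a median log2 ratio of -3.41. Igfbp4 had a log2 ratio of -5.43 and Nsg2 of -5.00. Ets1, Tob1 and Btg1, members of the same list, had ratios of 0.18, 0.90 and 1.83. Of 9 tissue retention and effector genes, 0 were lower and 5 were at least 4-fold higher, against 2.08% of all genes tested, among them Itga1, the alpha chain of a collagen-binding integrin, at 7.49, Itgae, the alpha chain of the E-cadherin ligand CD103, at 5.13, and Cd69, an antagonist of S1PR1 on the cell surface, at 2.11. Of 11 family relatives of the members with a mean of at least 10 CPM, 0 were called lower, and Klf6 and Ccr9, the latter a gut homing receptor, were higher at 2.37 and 3.53. Of the 4 TCF/LEF cofactors with a mean of at least 10 CPM, 0 were lower, with Ctnnb1, which encodes beta-catenin, at -0.49 and Tle3 at -0.86.

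Spleen cells of the 2 plates were compared next, since the labels separate them by plate code only and do not say whether plates differed in animal, day or gate. Of the 9 members, 7 were at least 2-fold higher in p2 than in p1 spleen cells (log2 ratio of at least 1), against 3.7% of 8368 genes. Ccr7 had the largest log2 ratio, 2.23, followed by Tcf7 at 1.84, S1pr1 at 1.46, Satb1 at 1.39, Bach2 at 1.36, Lef1 at 1.24 and Klf2 at 1.20. Il6ra had 0.72 and Foxo1 -0.07. Klf2 fell below the limit, to 0.92, without the cells with a B cell or CD8 marker, which left 6 of 9 members. The count was 7 against each p1 set alone and 7 among cells with at least 10 Il10 reads. Between the p1 sets, 0 of 9 members were at least 2-fold higher in columns 13-24, against 3.66% of 8290 genes, and the ratios ran from -0.68 for Bach2 to 0.54 for S1pr1. Foxp3 differed between the plates as well, with a log2 ratio of -2.74 of p2 to p1, and so did Il10, whose mean was 1947, 1921 and 807 CPM in the 3 sets. The part of these differences in the result was not tested. Of the naive and central memory genes 7 of 15 were at least 2-fold higher in p2, with Igfbp4 at 3.46.

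How many members a single cell expressed was then counted. Spleen cells had a mean of 2.77 ± 1.72, 2.77 ± 2.0 and 4.87 ± 2.39 detected members in the 3 sets, and SI cells 1.482 ± 0.867 (SD over the cells of a set). At least 4 members were detected in 27.8% (interval 20.4% to 36.3%), 30.3% (22.99% to 38.5%) and 70.5% (61.6% to 78.4%) of spleen cells and in 2 SI cells (1.46%, interval 0.177% to 5.17%). In p2 spleen 5 cells had all 9 members, and 0 cells of the other sets did. The number of members did not follow depth closely, with a Spearman rho to total reads of -0.17, -0.14 and -0.09 in the spleen sets and 0.18 in the SI. After each cell was thinned to 200000 reads the means were 2.55, 2.58 and 4.58 in the spleen sets and 1.37 in the SI.

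**Figure D3:**
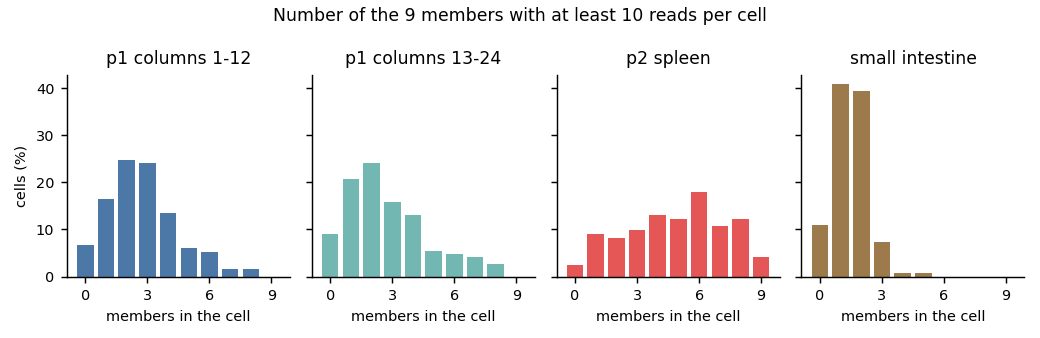
Distribution of the number of the 9 genes with at least 10 reads per cell (horizontal axis), as a percentage of the kept cells of each set. The p2 spleen cells spread from 0 to 9 with a median of 5, and SI cells gather at 1 and 2.

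Members were often detected in the same cells. Of the 36 pairs, 25 had more cells with both genes than the product of their shares in all 3 spleen sets, against 25.3% of all pairs of the 6246 genes detected in at least 10% of the cells of each set. This set of genes holds 8 members, since Ccr7 was below 10% in p1 columns 1-12. Another 8 pairs exceeded the product in all but 1 set and 3 pairs in 1 set. A Spearman rho of CPM of at least 0.2 was found for 10, 11 and 24 of the 36 pairs in the 3 sets, against 2.57%, 2.75% and 4.64% of all pairs. These correlations run over cells of 1 sample and share the depth of each cell, and are given as descriptions.

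The pair with the highest rho in p1 columns 13-24 was Ccr7 with Tcf7 (rho of 0.37, 0.43 and 0.58 in the 3 sets). Tcf7 was detected in 81.8%, 94.7% and 90.5% of the cells with Ccr7 and in 14.8%, 23.8% and 42.4% of the cells without. Most Tcf7 cells in p1 nevertheless lacked Ccr7, since 27 and 48 cells had Tcf7 and 11 and 19 had Ccr7. Lef1 and Tcf7 had a rho of 0.30, 0.24 and 0.58, and Tcf7 and Bach2 one of 0.38, 0.28 and 0.31. Klf2 and S1pr1, an activator and its target, had a rho of 0.29, 0.33 and 0.49, and were together in 12.03%, 17.2% and 43.4% of cells against products of 7.11%, 10.7% and 32.8%. Tcf7 and Il6ra had a rho of 0.28, 0.36 and 0.30.

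The 8 pairs of Foxo1 had a rho from -0.12 to 0.12 in p1 columns 1-12 and from -0.06 to 0.16 in p1 columns 13-24, and from 0.01 to 0.27 in p2. With Klf2 it had -0.09, 0.10 and 0.12. In the SI, where Satb1 and Foxo1 were the common members, both were detected in 42.3% of cells, against a product of 41.4%.

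**Figure D4:**
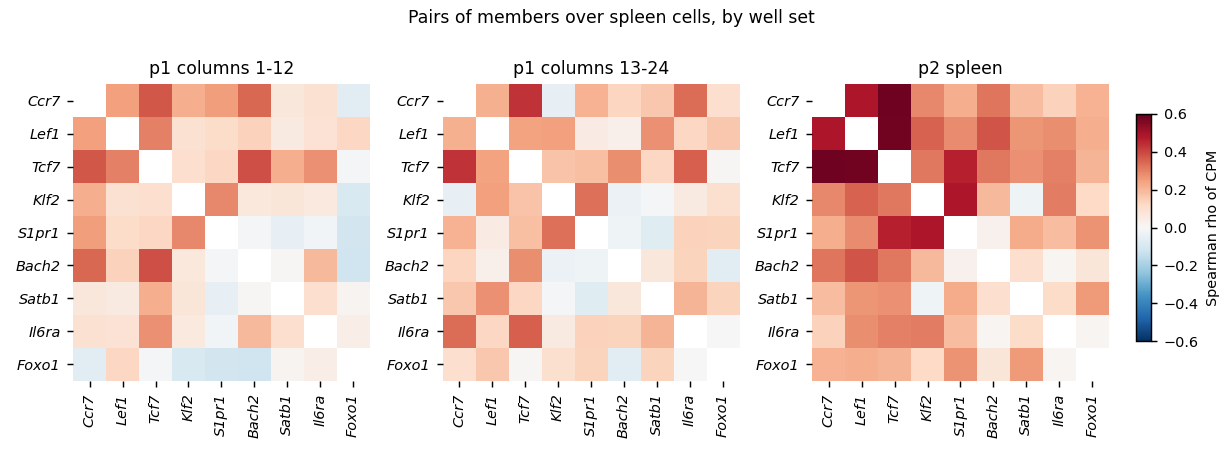
Spearman rho of CPM between the 9 genes over the kept cells of each spleen well set (colour scale from -0.6 to 0.6). The block of Ccr7, Lef1 and Tcf7 and the pair of Klf2 and S1pr1 are positive in every set, with the highest values in p2, and the values of Foxo1 in p1 lie between -0.12 and 0.16.

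The relation to Il10 was examined by sorting the cells of each set by Il10 CPM. The 44, 48, 40 and, in the SI, 45 cells with the most Il10 (Il10-high cells) were set against as many with the least (Il10-low cells). At least 2-fold lower levels in Il10-high cells (log2 ratio of -1 or less) were found for 6, 5 and 7 of 9 members in the 3 spleen sets, against 14%, 13.7% and 14.9% of genes. Ccr7, Lef1, Tcf7 and Klf2 passed this in all 3 sets, that is 4 of 9 members against 1.24% of 7360 genes. When cells with at least 10 Il10 reads were set against all others instead, 2 of 9, Ccr7 and Lef1, passed in all 3 sets, against 0.582% of 7556 genes. In p1 columns 1-12, Ccr7 was detected in 9 of the 44 Il10-low cells (384.7 CPM on average) and had 0 reads in the 44 Il10-high cells. Taking 3 reads over those cells as the floor, the level from summed reads was at least 1994-fold lower. This bound covers counting error only. Of the Ccr7 reads of this set, 40.3% came from 1 cell, which was among the Il10-low cells. By summed reads the level was 9.70-fold lower in p1 columns 13-24 and 14.5-fold lower in p2. In p1 columns 13-24, Ccr7 averaged 250 against 24.3 CPM, and in p2 1173 against 72.2 CPM. In p2 it was detected in 85% (interval 70.2% to 94.3%) of Il10-low and 17.5% (7.34% to 32.8%) of Il10-high cells.

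Tcf7 averaged 503.3, 481.8 and 1201 CPM in the Il10-low cells of the 3 sets and 81.4, 75.3 and 255.2 CPM in the Il10-high cells, log2 ratios of -2.61, -2.66 and -2.23. Lef1 had ratios of -2.31, -1.85 and -2.14, and Klf2 of -1.66, -1.31 and -1.59. Bach2 had -2.29, -0.96 and -2.79, and S1pr1 -2.06, -0.51 and -1.16. Il6ra was called in p1 columns 13-24 (-1.48) but not in p1 columns 1-12 (-0.89) or p2 (-0.45). Satb1 was called in 0 sets, with -0.41, -0.46 and -0.78. Foxo1 had 0.87 and 0.05 in p1 and -1.10 in p2. The rho of Ccr7 with Il10 was -0.39, -0.21 and -0.63, and that of Foxo1 0.11, 0.09 and -0.23. For Klf2 the rho was -0.17, -0.10 and -0.17. Klf2 was detected in 36.4%, 35.4% and 52.5% of Il10-low and 13.6%, 27.1% and 40% of Il10-high cells. The intervals of these Klf2 shares overlapped in every set. In p1 columns 1-12, S1pr1 was detected in 10 Il10-low and 9 Il10-high cells. The mean number of members was 3.5 in Il10-low and 2.11 in Il10-high cells of p1 columns 1-12, 3.62 and 2.25 in p1 columns 13-24 and 6.20 and 3.52 in p2.

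**Figure D5:**
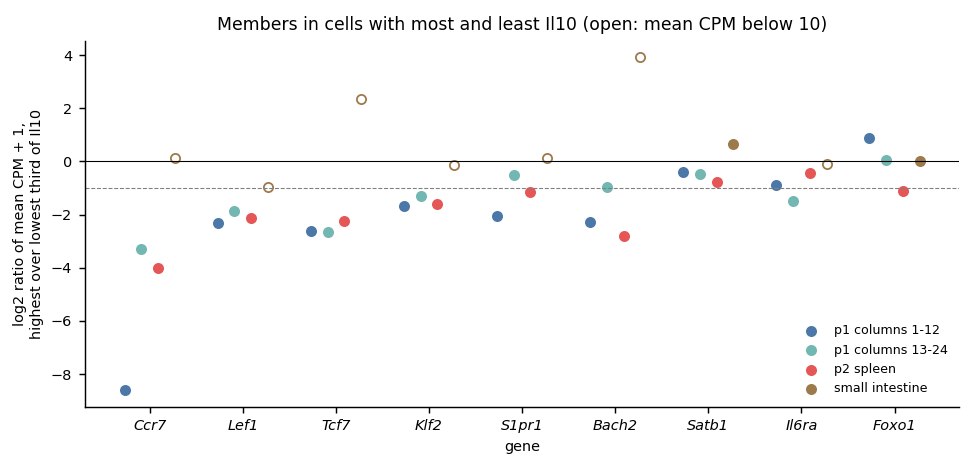
Log2 ratio of mean CPM + 1 in Il10-high over Il10-low cells, for each gene and set, with the call limit of -1 as a dashed line and open symbols where the mean over these cells was below 10 CPM. Ccr7, Lef1, Tcf7 and Klf2 lie below the line in all 3 spleen sets, and the value of -8.59 for Ccr7 in p1 columns 1-12 is set by the pseudocount, since its Il10-high cells have 0 reads.

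The reporter transcript moved with these groups. A read of eGFP was present in 38.6%, 27.1% and 2.5% of Il10-low cells and in 81.8%, 91.7% and 85% of Il10-high cells of the 3 spleen sets. The Il10-low cells of p2 reached no more than 5.02 CPM of Il10. By number of members, a read of eGFP was present in 74.2%, 69.8% and 64.3% of spleen cells with 0 to 1 members and in 43.2%, 45.5% and 39.5% of those with 4 or more. The part of the sort in this relation was not tested. Among cells with at least 10 Il10 reads, the mean number of members was still 2.48, 2.42 and 4.15 in the spleen sets against 1.481 in the SI, and Ccr7 was detected in 30.1% of such p2 cells and in 0 such SI cells.

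In the SI, 2 members had a mean of at least 10 CPM over the compared cells. Of these 2, 0 were called lower in Il10-high cells, against 11.9% of the 7900 genes with such a mean. A count over 2 genes is too small to set against that share. Satb1 averaged 323.4 CPM in Il10-low and 515.1 CPM in Il10-high cells, a log2 ratio of 0.67, and Foxo1 206.3 and 209.8 CPM, a ratio of 0.02. The mean number of members was 1.33 and 1.42. The other 7 genes were too scarce in the SI for a ratio to be read.

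Spleen cells were also grouped by Foxp3, a marker of regulatory T cells. In p1 columns 1-12, where 72 cells had at least 10 Foxp3 reads and 61 had fewer, Tcf7 was detected in 8.33% (interval 3.12% to 17.3%) of the former and 34.4% (22.7% to 47.7%) of the latter. In p1 columns 13-24 the shares were 1 of 19 cells (5.26%, interval 0.133% to 26.03%) and 37.3% of the others, and in p2 0 of 5 cells and 70.1%. Foxo1 went the other way, at 58.3% (46.1% to 69.8%) of Foxp3 cells against 27.9% (17.1% to 40.8%) of others in p1 columns 1-12 and 52.6% against 36.5% in p1 columns 13-24. Foxo1 was detected in 4 of the 5 Foxp3 cells of p2 and in 39.3% of the others. Its intervals overlapped in p1 columns 13-24 and in p2. Lef1 had 40.3% and 36.1% in p1 columns 1-12, 26.3% and 37.3% in p1 columns 13-24, and 2 of 5 cells and 53.85% in p2. For Il6ra the shares were 37.5% and 37.7% in p1 columns 1-12 and 21.1% and 32.5% in p1 columns 13-24, against 2 of 5 cells and 47.01% in p2, and the intervals overlapped for both genes.

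Cells with at least 10 reads of Cxcr5, the receptor that takes T cells to B cell follicles, had more members, with means of 3.30, 3.54 and 5.40 against 2.37, 2.33 and 4.35 in the other cells of the 3 sets. Tcf7 was detected in 29.8%, 57.7% and 76.7% of Cxcr5 cells and in 13.2%, 19.4% and 58.1% of others. Il6ra was detected in 45.6%, 48.1% and 58.3% against 31.6%, 21.5% and 35.5%. For both genes the intervals were apart in p1 columns 13-24 only and overlapped in the other sets. Some shares were lower in Cxcr5 cells. In p2 these were Klf2, at 51.7% against 56.5%, and S1pr1, at 60% against 61.3%. In p1 columns 13-24 it was Foxo1, at 36.5% against 39.8%. Every other share of a member was higher in Cxcr5 cells. In the SI 0 cells had 10 reads of Cxcr5.

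Genes whose pattern over spleen cells was most like that of the members were ranked by the weakest of their 3 rho values, one per set, to the mean log2(CPM + 1) of the 9 genes, among the 4715 genes read in 25% or more of each set's cells. The 10 genes with the most positive weakest value were Rpl4, Slamf6, Ablim1, Rpl13, Rplp0, Dgka, Rpl13a, Rplp2, Btla and Rps24, of which 6 encode ribosomal proteins. Slamf6, a surface receptor of lymphocytes, had 0.37, 0.51 and 0.49, and Btla, an inhibitory receptor, 0.35, 0.34 and 0.49. The 10 with the most negative weakest value were Cxcr6, Ctla4, Bcl2a1d, Runx2, Nkg7, Havcr2, Id2, Pdcd1, S100a4 and Il10. Cxcr6, a receptor of effector and tissue cells, had -0.41, -0.38 and -0.53. In cells with 4 or more members Slamf6 was detected in 75.7%, 81.8% and 91.9% and Cxcr6 in 13.5%, 18.2% and 15.1% of the 3 sets, and in cells with 0 to 1 members in 48.4%, 25.6% and 28.6% and in 67.7%, 65.1% and 57.1%. Both genes were picked by their rho in these same cells, so the direction of these shares follows from that choice.

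Cycling cells, which the study removes, were set against G1 cells within each spleen set. There were 47, 39 and 57 cells called S or G2M. In them 3, 3 and 0 of 9 members were at least 2-fold lower, against 9.65%, 10.3% and 10.4% of genes. In all 3 sets together 0 of 9 passed, against 0.78% of 7824 genes. A count of 0 in 9 genes cannot be told from that share. Ccr7 had log2 ratios of -2.37, -2.03 and -0.77, Bach2 of -1.73, -2.02 and -0.58, and Tcf7 of -1.48, -0.92 and -0.74. Klf2 had -0.15, 0.39 and -0.37, and S1pr1 -0.12, -0.21 and -0.30. With cycling cells kept, the mean number of members was 2.82, 2.73 and 4.70 in the spleen sets and 1.54 in the SI.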

How the data were processed

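Single-cell cDNA was made by SMART-seq2. The authors aligned paired-end reads with STAR in 2 passes and deposited counts of reads per gene, 1 column per cell (764 cells, 0 unused columns). Their methods name build Mm8 and the submitters' processing notes mm10. The counting tool is not given in the sources used here. Cells whose log total reads or genes lay more than 3 MAD under their tissue's median were removed (31 spleen, 19 SI), and then those that cyclone, in scran 1.30.0, put in S or G2M. CPM was computed per cell over all rows but eGFP. Log2 ratios compare mean CPM + 1. Calls used genes with a mean of at least 10 CPM and limits of -2 (tissues), 1 (well sets) and -1 (Il10 groups, cycling). With 1 sample per tissue no count test was run. A pseudocount understates low genes. Reads of 1 molecule copied by PCR are counted apart, so intervals and floors (3 counts) cover counting error only. edgeR 4.0.16 and DESeq2 1.42.0 gave alternative scaling of counts summed per set. No doublet caller was run on cells sorted into wells. The functions were tested on simulated data. The members and lists were chosen with earlier results of these data known. Named genes were all members, up to 4 of each list and the 10 most and least alike. One listed gene is not reported here. Alternatives were other pseudocounts, read limits, depths, filters and cell subsets.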

Additional observations from a re-analysis of the deposited data

Results flagged for a closer look

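Satb1 had opposite signs in the 2 tissues when the cells with the most Il10 were set against those with the least. Its log2 ratio was 0.67 in the small intestine and -0.41, -0.46 and -0.78 in the 3 spleen well sets. In p1 columns 1-12 the sign was positive under other settings, at 0.15 when cells with at least 10 Il10 reads were set against the rest, 0.24 without cells with a Foxp3 read and 0.10 with cycling cells kept. The difference between the tissues was not tested, and each tissue was 1 sample. No group of samples was of a size to be screened for a sample far from the others.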

How the results depend on the processing

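Members lower in the small intestine, against all spleen cells or p2 alone, stayed 7 of 9 under pseudocounts of 0.1 and 10 CPM. The same held with cycling cells kept, without the filter on low genes and under edgeR and DESeq2 scaling. Against all spleen cells, these scalings moved the median of all genes from -0.23 to -0.027 (edgeR) and -0.0036 (DESeq2). The count against all spleen cells also stayed 7 without any 1 spleen well set. The 7 higher in p2 and the 0 higher in p1 columns 13-24 also kept their counts under the planned settings. Among all genes, a pseudocount of 10 CPM lowered the share called in these comparisons to between 1.35% and 1.60%, and calls without the filter on low genes numbered 655, 761, 1073 and 1139. Genes higher in p2 were 2.35% with cycling cells kept and 5.97% without p1 columns 13-24, and 2.23% were higher in p1 columns 13-24 with cycling cells kept. The Il10 count went from 4 to 2 of 9 (Ccr7 and Lef1) when cells with at least 10 Il10 reads were set against the rest, and to 5 (with Bach2) among cells with an Il10 read or with cycling cells kept. The cycling count went from 0 to 1 (Tcf7) with Mki67 in place of cyclone. The cause was not tested. The mean number of members ran from 2.56 (at least 50 reads) to 4.30 (at least 1 read), and the pairs from 20 to 28 of 36. Restriction by Il10 reads and by other cell types' markers was chosen after seeing the data. No paired analysis was possible because no test was run and each tissue was 1 sample. At the number of small intestine cells, a share of 0 has an exact upper limit of 2.66%, and the floor of 3 cells is 2.19%.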
